A study of Mus musculus with 386 samples.

Results

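The set comprises 7 genes that are expressed mainly from the maternally inherited copy in at least some mouse tissues or cell types: Grb10, Igf2r, Cdkn1c, Phlda2, Slc22a18, Ube3a and Asb4. They were chosen by name as maternally expressed imprinted genes, with earlier results of these data known. Each was represented by 1 transcript cluster, the set of probes that the array summarises into a single value. The table held 18820 genes whose cluster carries a single symbol. Total RNA of 4 tissues (brain, kidney, liver, lung) taken at an age of 23 days was hybridised to Affymetrix Mouse Gene 1.1 ST arrays. The animals were F1 mice of the 6 reciprocal crosses CASTxPWK, PWKxCAST, CASTxWSB, WSBxCAST, PWKxWSB and WSBxPWK, with the dam named first, and inbred mice of the strains CAST, PWK and WSB, in both sexes. In all, 386 arrays came from 111 animals, with 6 to 13 arrays per cross and tissue. All animals descended, within few generations, from founders of a commercial repository and were bred at one university, and each replicate is a separate animal per the labels.

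Genomic imprinting marks some genes in egg or sperm so that one parental copy is silenced in the offspring. Reciprocal F1 animals have the same autosomal genotype but receive each strain's copy from opposite parents, so a gene read only from the maternal copy, with a strain difference that lies in that copy, gives F1 levels that follow the dam. Grb10, an adaptor that dampens insulin and growth factor signalling, is expressed from the maternal copy in most tissues and from the paternal copy in neurons. Igf2r, the receptor that takes up and degrades insulin-like growth factor 2, is maternally expressed in most mouse tissues but is expressed from both copies in neurons. Cdkn1c (a cyclin-dependent kinase inhibitor), Phlda2 (a pleckstrin homology protein that restrains placental growth) and Slc22a18 (an organic cation transporter-like protein) lie side by side in 1 imprinted domain. Ube3a, a ubiquitin ligase, is imprinted in neurons only, and Asb4 encodes a substrate adaptor of a ubiquitin ligase complex.

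In the RefSeq annotation of GRCm38.p6, Grb10 lies at chr11:11930499-12037428, Igf2r at chr17:12682406-12769706, Ube3a at chr7:59228750-59310837 and Asb4 at chr6:5383386-5433022. The domain on chromosome 7 holds Cdkn1c at chr7:143458339-143461059, Slc22a18 at chr7:143473726-143499334 and Phlda2 at chr7:143501545-143503145. RefSeq promoter entries of the same build were matched for 6 of the 7 genes, and a start can lie inside the gene's span, as it does for Slc22a18 and Phlda2. The 250 bases before the start of each promoter entry, which need not be the outer end of the gene given above, are shown for the 3 genes whose reciprocal F1 crosses differed in the direction of their dams, 5′ to 3′ on the gene's strand, with each CpG in capitals, since imprints are carried as methylation of CpG sites.
Grb10, first start: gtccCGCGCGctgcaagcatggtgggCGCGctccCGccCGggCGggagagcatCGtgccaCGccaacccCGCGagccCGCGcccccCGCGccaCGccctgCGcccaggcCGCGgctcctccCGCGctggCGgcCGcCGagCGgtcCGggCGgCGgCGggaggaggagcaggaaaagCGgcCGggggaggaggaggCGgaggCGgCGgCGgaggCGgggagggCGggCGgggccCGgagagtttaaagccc
Grb10, second start: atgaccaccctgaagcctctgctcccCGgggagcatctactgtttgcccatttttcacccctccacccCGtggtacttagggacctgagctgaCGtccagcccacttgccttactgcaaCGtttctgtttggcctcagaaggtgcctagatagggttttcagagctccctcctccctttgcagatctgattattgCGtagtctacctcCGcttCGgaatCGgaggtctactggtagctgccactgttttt
Igf2r: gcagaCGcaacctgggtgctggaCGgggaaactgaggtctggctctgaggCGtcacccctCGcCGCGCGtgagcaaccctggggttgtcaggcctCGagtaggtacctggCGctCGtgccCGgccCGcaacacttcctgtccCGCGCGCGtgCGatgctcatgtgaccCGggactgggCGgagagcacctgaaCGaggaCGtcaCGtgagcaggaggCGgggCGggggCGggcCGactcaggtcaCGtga
Slc22a18: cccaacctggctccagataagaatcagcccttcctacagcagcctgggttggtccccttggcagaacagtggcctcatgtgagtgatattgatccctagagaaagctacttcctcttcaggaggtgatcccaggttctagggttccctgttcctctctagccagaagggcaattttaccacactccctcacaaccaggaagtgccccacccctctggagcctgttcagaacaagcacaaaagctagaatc
The first Grb10 window, chr11:12037421-12037670 on the minus strand, held 40 CpG, a number reached by 1.31% of the 32851 promoter entries, whose median was 6. The second Grb10 window, chr11:12027972-12028221 on the minus strand, held 8 CpG. The Igf2r window, chr17:12769707-12769956 on the minus strand, held 27 CpG, and the Slc22a18 window, chr7:143473539-143473788 on the plus strand, held 0. Among the others, the windows held 21 CpG for Phlda2, 24 for Ube3a, and 4 and 8 for the 2 Asb4 entries. The letters TGCCGC, the core motif bound by the imprint-protecting factor ZFP57 when methylated, were searched on both strands and were in none of these windows, against 8.68% of all entries. With so few windows at that share, finding none cannot set these genes apart from others. The windows were taken by their place before a start, and not as the regions that carry an imprint.

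Values are log2 signals, so a difference of 1 is a 2-fold change, and levels of different genes are not compared because each cluster has its own probes. Differences were tested with limma across all genes of a tissue whose mean signal lay at or above the 40th percentile there, 11292 genes in each tissue, and a difference is referred to as called where its Benjamini-Hochberg adjusted p over those genes was under 0.05. This filter left 4 of the 7 genes in brain (Grb10, Igf2r, Cdkn1c and Ube3a) and 6 each in kidney, liver and lung, with Asb4 below it in every tissue. Neuron, hepatocyte and proximal tubule markers were highest in brain, liver and kidney (6 of 6, 5 of 5 and 6 of 6 on the table), and 5 of 6 alveolar markers were highest in lung. Of 5 podocyte markers, 2 were highest in kidney and 3 in lung. Exocrine pancreas markers averaged 5.48 in liver, with the highest liver array at 10.61. Brown fat markers were highest in kidney (6 of 6, mean level per array from 7.12 to 11.06) and heart muscle markers in lung (5 of 5, 9.15 to 12.75), so those pieces of tissue differed in what they held. On 2 arrays a sex-specific gene went against the label, Xist alone in a female PWKxCAST brain (3.98, with Eif2s3y at 3.83) and both Xist and Eif2s3y in a male PWKxWSB liver (10.7 and 4.53), and leaving both out changed no count of reciprocal, inbred, mid-parent, sex or tissue differences called for the 6 tested genes. Polymorphisms within the probe sequences were not examined, so signals that differ between strains need not mean unequal amounts of transcript. Reciprocal F1 mice carry the same autosomal alleles, but where only the maternal copy is read they express different ones. The same limit then holds for their comparison.

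Differences between tissues were widest for Slc22a18, Phlda2 and Cdkn1c and narrowest for Ube3a. Slc22a18 averaged 12.10 ± 0.23 in kidney, 11.66 ± 0.14 in liver, 8.09 ± 0.29 in lung and 5.78 ± 0.28 in brain (SD over all arrays of the tissue, n = 102, 101, 98 and 85). Phlda2 averaged 10.33 ± 0.38 in kidney, 7.39 ± 0.88 in liver, 7.04 ± 0.43 in lung and 5.40 ± 0.22 in brain, and its kidney level exceeded the other tissues' mean by 3.70 ± 0.04 (SE). The ranges of Slc22a18 in kidney and liver overlapped (11.56 to 12.64 against 11.34 to 11.97), and those of Phlda2 in liver and lung did so widely (5.76 to 9.45 against 5.93 to 8.04). Cdkn1c fell into 2 levels, with 9.43 ± 0.29 in kidney and 9.39 ± 0.20 in lung, and 7.63 ± 0.31 in liver and 7.54 ± 0.26 in brain, where the members of each pair differed by less than their spread.

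**Figure D1:**
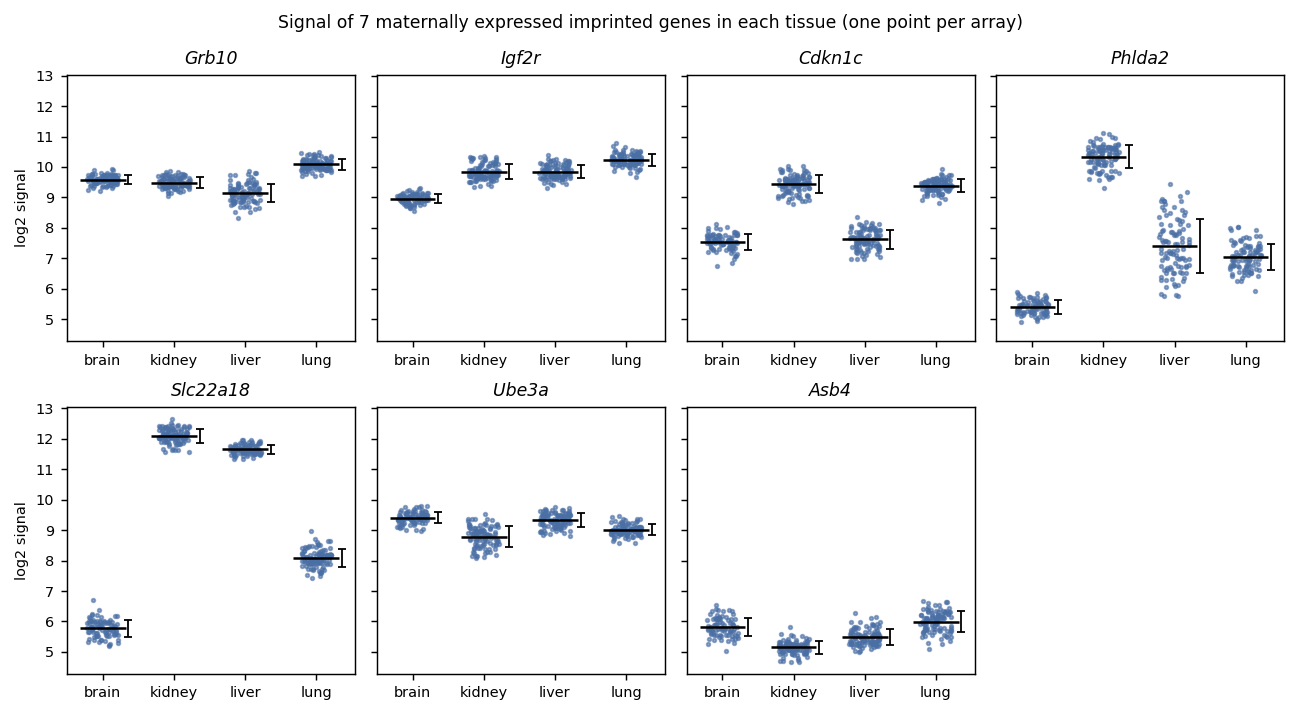
Log2 signal of the 7 genes on each of the 386 arrays by tissue, with the mean as a line and the SD as a bar beside it. Slc22a18 and Phlda2 were highest in kidney (means 12.10 and 10.33) and lowest in brain (5.78 and 5.40), and Phlda2 in liver had the widest scatter (SD 0.88).

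Grb10 was highest in lung at 10.08 ± 0.17 and lowest in liver at 9.15 ± 0.31, with brain at 9.58 ± 0.15 and kidney at 9.49 ± 0.17 between them and closer to each other than their SD. Igf2r was highest in lung at 10.24 ± 0.20 and lowest in brain at 8.96 ± 0.15, while kidney and liver had the same mean of 9.85 (SD 0.25 and 0.22). Ube3a ran in a narrow order from brain at 9.41 ± 0.19 and liver at 9.33 ± 0.23, which differed by less than their spread, to lung at 9.01 ± 0.18 and kidney at 8.79 ± 0.33. Asb4 stayed low, from 6.0 ± 0.34 in lung and 5.82 ± 0.30 in brain to 5.49 ± 0.26 in liver and 5.15 ± 0.20 in kidney. Set against the mean of the other tissues in a fit with the animal as a random block, 23 of 24 differences of the 6 genes tested were called, the exception being Grb10 in brain (0.01 ± 0.02, SE, adjusted p = 0.774). This share is near the background, since 96.4% of all genes tested were called for brain, 94.7% for kidney, 96.5% for liver and 96.4% for lung. That fit kept genes by their mean over all arrays. Phlda2 and Slc22a18 thus entered it in brain, where their means of 5.40 and 5.78 lay below the filter level of 6.37. In whole tissue, fewer cells of a type and less RNA per cell cannot be told apart.

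The genes most like each of these over the 36 means of cross and tissue, by Pearson's r, were Sgms2 (0.995) and Aldh9a1 (0.994) for Slc22a18, Csad (0.985) and Mlec (0.974) for Phlda2, Rab25 and Slc16a9 (both 0.986) for Cdkn1c, and Pkn2 (0.965) and Stt3b (0.963) for Igf2r. For Ube3a they were Tmem30a (0.946) and Dhx36 (0.939), for Grb10 Ptgfrn (0.939) and Tmem164 (0.937), and for Asb4 Axin2 (0.903) and AI597479 (0.892). The 36 means share animals and arrays, and differences between tissues make up most of their spread. Among the 7 genes themselves the neighbours Phlda2 and Slc22a18 had an r of 0.83 over the same means, Cdkn1c had 0.62 with Phlda2 and 0.30 with Slc22a18, and Cdkn1c and Ube3a ran opposite (-0.90).

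The inbred strains differed in most tests, and the reciprocal F1 crosses in few. Over 66 tests (each gene tested, tissue and pair of strains), the inbred difference was called in 41 or 62.1%, against 55% over all genes, a share near the background. Over all genes, CAST/PWK, CAST/WSB and PWK/WSB inbred differences were called for 40.9%, 52.4% and 40.4% in brain and 60.1%, 59.6% and 60.7% in kidney. The same shares were 50.1%, 57% and 55.3% in liver and 62.7%, 59.9% and 61.4% in lung. The reciprocal difference, the F1 with the first-named strain as dam minus the F1 with that strain as sire, was called in 9 or 13.6%, against 5.97% over all genes. Over all genes and for the same 3 pairs, reciprocal differences were called for 0.151%, 0.779% and 0.248% in brain and 3.03%, 2.44% and 1% in kidney. Livers had shares of 9.32%, 5.62% and 1.22%, and lungs of 0.611%, 38.8% and 8.4%. The reciprocal differences called were 4 for Grb10, 2 each for Igf2r and Slc22a18, 1 for Cdkn1c and 0 in limma for Phlda2 and Ube3a, where 5 of 9 and 1 of 12 had an unadjusted p under 0.05. Of the 41 inbred differences called, the reciprocal difference was also called in the direction of the dams in 6 and in the direction of the sires in 1. Over all genes these shares of the inbred differences called were 3.17% and 3.45%, and over autosomal genes 2.75% and 3.49%. The reciprocal and the inbred difference themselves differed by test in 27 of the 66 (44.1% over all genes), and in 17 of the 41 the reciprocal difference was smaller in size than the inbred one by tests of both their difference and their sum. The sum was called in 36 of the 66 (42.9% over all genes).

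**Figure D2:**
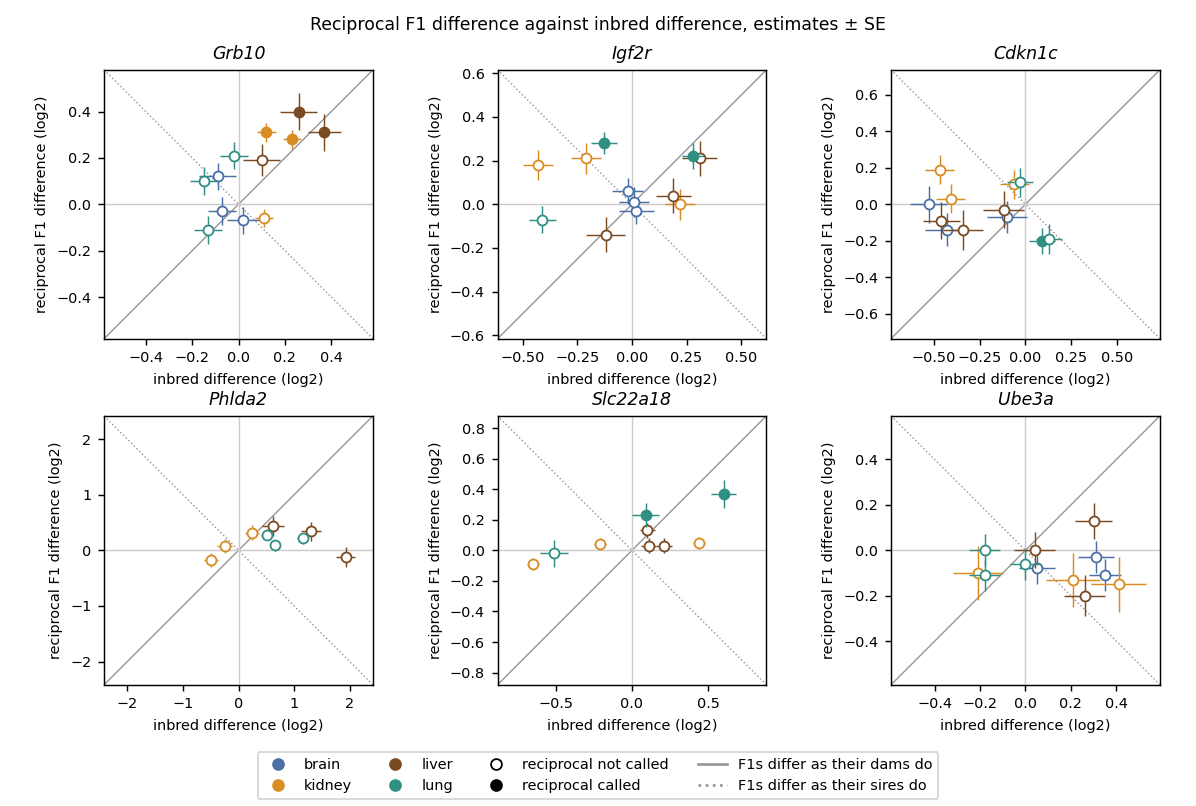
Reciprocal F1 difference (vertical) against inbred difference (horizontal) in log2 for the 6 tested genes, 1 point per tissue and pair of strains with SE bars, filled where the reciprocal difference was called. Points on the solid line have F1 that differ as their dams do, and on the dotted line as their sires do; the 4 filled Grb10 points have reciprocal differences of 0.28 to 0.40 with inbred differences of the same sign, while Phlda2 reaches an inbred difference of 1.93 with a reciprocal difference of -0.12.

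Grb10 accounted for 4 of the 6 differences in the direction of the dams. In kidney and liver, both crosses with a CAST dam stood above their reciprocals with a CAST sire, by 0.28 to 0.40, and this held in all 4 comparisons. In the crosses between PWK and WSB, with no CAST parent, neither tissue gave a call in the fit used throughout. That difference was -0.06 ± 0.04 in kidney and 0.19 ± 0.07 in liver (adjusted p = 0.619 and 0.229). The liver one had the sign of the inbred difference (0.10 ± 0.08, not called) and was called with array weights (0.23, adjusted p = 0.0461). In kidney the share of all genes called in a reciprocal comparison was 3.03% for CAST and PWK and 2.44% for CAST and WSB, and in liver 9.32% and 5.62%.

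In kidney, Grb10 ranged from 9.60 to 9.84 with a median of 9.71 in CASTxPWK (n = 12), against 9.28 to 9.58 with a median of 9.37 in PWKxCAST (n = 11). All 12 CASTxPWK kidneys lay above all 11 PWKxCAST kidneys. The difference was 0.31 ± 0.04 (SE, adjusted p = 5.77e-07), a 1.24-fold change, in the same direction as CAST minus PWK inbred mice (0.12 ± 0.04, adjusted p = 0.0139) but larger by 0.19 ± 0.06 (adjusted p = 0.00734). The inbred difference was not called without CASTxCAST kidney replicate 4 (0.10, adjusted p = 0.0551), nor with each array centred on its median (0.09, adjusted p = 0.0599).

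The pair of CAST and WSB gave nearly the same picture in kidney. CASTxWSB kidneys ranged from 9.46 to 9.82 with a median of 9.63 (n = 11), against 9.18 to 9.49 with a median of 9.36 in WSBxCAST (n = 11), and 10 of the 11 CASTxWSB kidneys lay above the highest WSBxCAST one. The difference was 0.28 ± 0.04 (adjusted p = 1.13e-05) and that between CAST and WSB inbred kidneys 0.23 ± 0.04 (adjusted p = 4.52e-06), with no call for the difference of the 2 (0.05 ± 0.06, adjusted p = 0.506). In males alone the reciprocal differences of these pairs were 0.36 and 0.29, both called, and in females 0.26 and 0.27, not called (adjusted p = 0.097 and 0.203). Set against the parents directly, CASTxPWK and CASTxWSB kidneys differed from CAST inbred ones by only 0.03 ± 0.04 and -0.03 ± 0.04, neither called, and stood above the sire's strain by 0.15 ± 0.04 and 0.20 ± 0.04 (adjusted p = 0.00247 and 0.000114). PWKxCAST kidneys lay below both parents, by 0.16 relative to PWK and 0.28 relative to CAST, both called, whereas WSBxCAST kidneys lay below CAST by 0.31 and did not differ by test from WSB (-0.08 ± 0.04, adjusted p = 0.148).

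Without a CAST parent, Grb10 in kidney had a median of 9.33 in PWKxWSB (9.05 to 9.43, n = 12), against 9.39 in WSBxPWK (9.13 to 9.44, n = 10). The reciprocal difference was -0.06 ± 0.04 (adjusted p = 0.619), where the inbred difference of PWK and WSB was 0.11 ± 0.04 (adjusted p = 0.0232). That inbred call was lost without any of 3 single arrays, PWKxPWK kidney replicates 5 and 7 and WSBxWSB kidney replicate 3 (adjusted p up to 0.0691), and with centred arrays (0.07, adjusted p = 0.175). The mean of both crosses lay below the mean of their parents by 0.16 (-0.16 ± 0.03, adjusted p = 2.35e-05).

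In liver the spread was wider and the order the same. Grb10 ranged from 9.0 to 9.52 with a median of 9.21 in CASTxPWK livers (n = 10), against 8.33 to 9.18 with a median of 8.84 in PWKxCAST livers (n = 11). All 10 CASTxPWK livers lay above the median of the other cross and 5 above its highest value. The difference was 0.40 ± 0.08 (adjusted p = 0.000504), a 1.32-fold change, beside an inbred difference of 0.26 ± 0.08 (adjusted p = 0.00454).

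CASTxWSB livers ranged from 9.09 to 9.73 with a median of 9.36 (n = 12), against 8.86 to 9.40 with a median of 9.01 in WSBxCAST livers (n = 11). This difference was 0.31 ± 0.08 (adjusted p = 0.00447), beside 0.37 ± 0.07 between the inbred strains (adjusted p = 1.39e-05). It was 0.55 ± 0.11 in females and 0.08 ± 0.10 in males, and the test of that sex difference was not called over all genes (0.47 ± 0.15, adjusted p = 0.421). Grb10 in liver was also higher in females than in males over all crosses, at 9.31 ± 0.27 (SD, n = 49) against 8.99 ± 0.25 (n = 52), a difference of 0.32 ± 0.04 (SE, adjusted p = 1.38e-11).

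**Figure D3:**
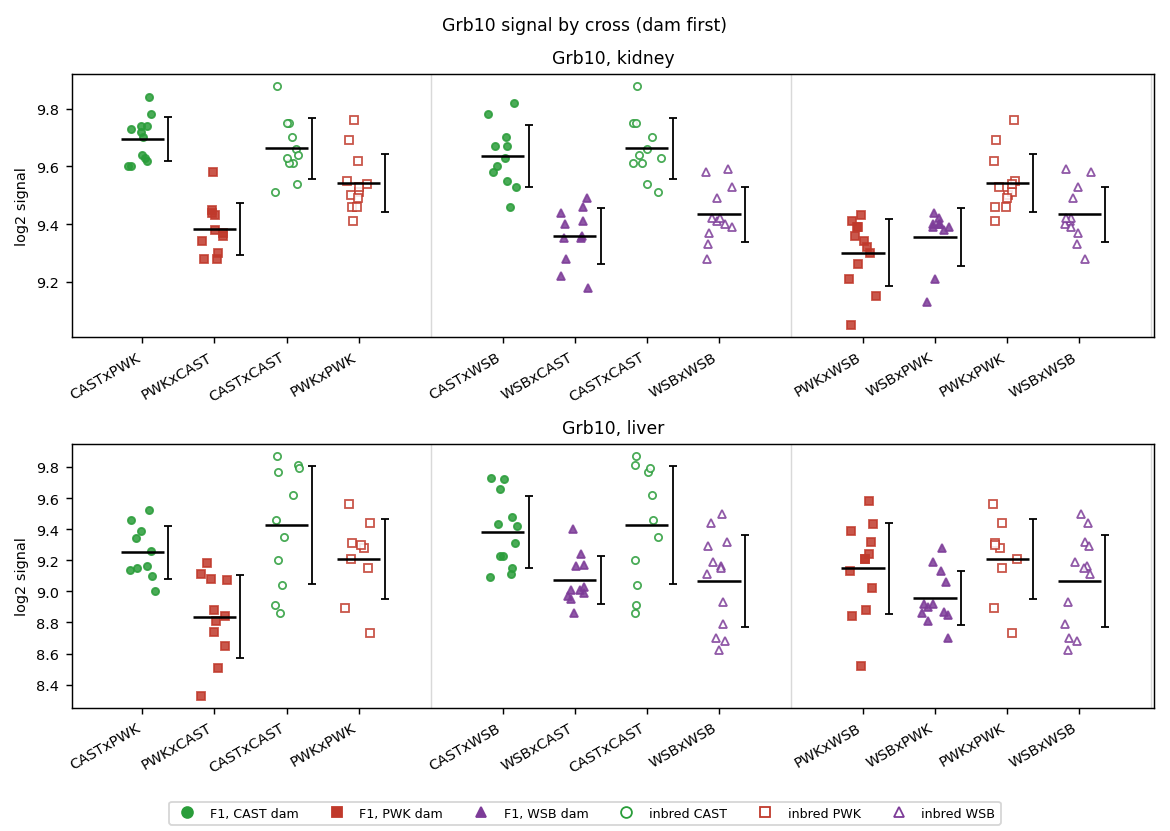
Grb10 log2 signal on each kidney array (top) and liver array (bottom), in 3 blocks of a reciprocal F1 pair and its parent strains, with mean lines and SD bars; filled points are F1 animals and colour and shape give the dam's strain. In kidney the CASTxPWK animals (9.60 to 9.84) all lie above the PWKxCAST animals (9.28 to 9.58), and PWKxWSB and WSBxPWK lie at like levels (medians 9.33 and 9.39).

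The animals of a cross fell into 2 to 4 runs of neighbouring animal numbers (a gap above 5 starts a new run), each run within 1 cross, and no source used here gives litter, day or plate. In kidney every run of the F1 crosses with a CAST dam (means 9.52 to 9.72 over 5 runs) lay above every run of the crosses with a CAST sire (9.23 to 9.41 over 5 runs). With the runs as a random block, the Grb10 difference of CASTxPWK and PWKxCAST kidneys was still called (0.32, adjusted p = 0.0294, although the inbred difference was not at 0.13, adjusted p = 0.0608), whereas that of CASTxWSB and WSBxCAST kidneys was not (0.29, adjusted p = 0.0767), nor were those in liver (0.40 and 0.32, adjusted p = 0.255 and 0.388). In CAST/PWK liver the runs with a CAST dam had means of 9.18 and 9.32, against 8.62 to 8.89 for those with a CAST sire, and in CAST/WSB liver 9.26 to 9.57 against 9.07 and 9.09. In CAST/PWK the proliferation markers had a median reciprocal difference of -0.49 in kidney and 0.49 in liver, and in CAST/WSB of -0.17 and -0.01, with no marker called. Brown fat and hepatocyte markers varied widely between kidney arrays (mean level 7.12 to 11.06 and 5.41 to 11.57). Over all tissues 0 of 36 and 0 of 51 of their reciprocal tests were called. The part of any of these markers in the Grb10 differences was not tested.

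In brain and lung, Grb10 gave no call between reciprocal crosses in the fit used throughout. In brain the differences were 0.12 ± 0.06 (CASTxPWK minus PWKxCAST), -0.03 ± 0.06 (CASTxWSB minus WSBxCAST) and -0.07 ± 0.06 (PWKxWSB minus WSBxPWK), with adjusted p from 0.749 to 0.894 and no inbred difference called. The CAST/WSB difference in brain stood below the mean of that in the other tissues by a test of its own (-0.26 ± 0.07, adjusted p = 0.0363), and the PWK/WSB difference in liver above the other tissues (0.27 ± 0.07, adjusted p = 0.00802). Over all genes, 3.94% of such tissue differences were called, and 4 of 72 were for the 6 genes here. In lung the reciprocal differences were 0.21 ± 0.06, 0.10 ± 0.06 and -0.11 ± 0.06, beside inbred differences of -0.02, -0.15 (adjusted p = 0.0307) and -0.13 (adjusted p = 0.0392). For CAST and WSB the reciprocal difference had the opposite sign to the inbred one and departed from it by test (0.25 ± 0.08, adjusted p = 0.00855). Both inbred calls were lost with the runs as a block (adjusted p = 0.172 and 0.107) and without any of several single arrays (adjusted p up to 0.0955 without CASTxCAST lung replicate 3, and up to 0.103 without PWKxPWK lung replicate 8). The CAST/PWK reciprocal difference was called without CASTxPWK lung replicate 10 (0.24, adjusted p = 0.0406, against 0.107 with it). With array weights the CAST/PWK and CAST/WSB reciprocal differences in lung were both called (0.22 and 0.11, adjusted p = 0.00941 and 0.0385).

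Igf2r in lung followed the dam in one pair of strains and ran against it in another. PWKxWSB lungs ranged from 10.31 to 10.55 with a median of 10.42 (n = 10), against 10.08 to 10.42 with a median of 10.16 in WSBxPWK lungs (n = 11). The difference was 0.22 ± 0.06 (adjusted p = 0.011), near that between the PWK and WSB inbred strains (0.28 ± 0.05, adjusted p = 5.75e-06), and each F1 cross stood within 0.06 of its dam's strain with no call. All 10 PWKxWSB lungs lay above the median of WSBxPWK.

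For CAST and WSB the Igf2r range was 10.16 to 10.53 with a median of 10.27 in CASTxWSB lungs (n = 11), against 9.68 to 10.35 with a median of 10.03 in WSBxCAST lungs (n = 12). CASTxWSB was higher by 0.28 ± 0.05 (adjusted p = 0.000121) although CAST inbred lungs were lower than WSB ones (-0.13 ± 0.06, adjusted p = 0.0383). Each cross was close to its sire's strain (0.07 ± 0.06 and -0.08 ± 0.06 from the sire's strain, neither called) and was off the dam's strain by 0.20 and -0.21, both called. The inbred difference lost its call when any of several single arrays was left out (adjusted p up to 0.124 without WSBxWSB lung replicate 11) and with the runs as a random block (-0.12, adjusted p = 0.184). With the runs as a block, the reciprocal difference of CAST and WSB kept its call (adjusted p = 0.0235) and that of PWK and WSB did not (0.21, adjusted p = 0.474).

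These lung comparisons stand against a wide background, since 38.8% of all genes were called between CASTxWSB and WSBxCAST lungs and 8.4% between PWKxWSB and WSBxPWK lungs. Lymphocyte markers moved with both: 5 of 5 were lower in CASTxWSB than in WSBxCAST lungs (median difference -0.62, mean level per array from 7.08 to 8.34 against 8.04 to 8.83). Between PWKxWSB and WSBxPWK lungs 4 of 5 were lower (median -0.62, 6.79 to 7.97 against 7.60 to 8.91). Mean levels of other tissues' markers differed too. Hepatocyte markers averaged 8.91 per array in PWKxWSB lungs (6.67 to 9.98), against 7.83 in WSBxPWK lungs (6.65 to 8.92), and heart muscle markers 11.30 (10.54 to 12.47) against 10.72 (10.45 to 11.13). Proximal tubule markers averaged 7.56 in CASTxWSB lungs (6.92 to 8.48), against 7.03 in WSBxCAST lungs (6.68 to 7.51), and 7.16 in PWKxWSB lungs, against 6.81 in WSBxPWK lungs. No hepatocyte or heart muscle marker was called by limma between these reciprocal crosses (median difference 1.09 for hepatocyte markers in PWKxWSB minus WSBxPWK), and 1 of the 2 proximal tubule markers tested was, between CASTxWSB and WSBxCAST lungs. Slc22a18 itself was higher in liver (11.66) and kidney (12.10) than in lung (8.09). The part of these markers in the lung differences of Igf2r, Slc22a18 and Cdkn1c was not tested.

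Between CAST and PWK, Igf2r in lung showed a clear strain gap that the F1 animals did not carry. CAST inbred lungs ranged from 9.93 to 10.22 (n = 10) and PWK ones from 10.32 to 10.79 (n = 12), with no overlap and a difference of -0.41 ± 0.06 (adjusted p = 1.2e-09). CASTxPWK and PWKxCAST lungs had medians of 10.13 and 10.29 and differed by -0.07 ± 0.06 (adjusted p = 0.745), a smaller gap than the inbred one by test (0.34 ± 0.08, adjusted p = 0.000366).

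In kidney, Igf2r was lower in F1 mice than the mean of their parents in all 3 pairs of strains, by 0.25, 0.26 and 0.26 (SE 0.05 each, adjusted p up to 9.2e-05). The 6 F1 means lay from 9.66 to 9.97, against 10.23 ± 0.11 in WSB (SD, n = 12), 10.02 ± 0.24 in CAST (n = 11) and 9.80 ± 0.22 in PWK inbred kidneys (n = 12). None of the 3 reciprocal differences in kidney was called (0.00, 0.21 and 0.18, SE 0.07 each). With array weights the CAST/WSB one was called (0.21, adjusted p = 0.0394, inbred -0.21). In liver the inbred differences were -0.12, 0.19 and 0.31 (adjusted p = 0.262, 0.03 and 0.000978). The second was not called with the runs as a block (0.2, adjusted p = 0.13). Liver reciprocal differences were -0.14, 0.04 and 0.21, none called. With array weights both CAST/PWK ones were called (inbred -0.17, adjusted p = 0.0437, and reciprocal -0.22, adjusted p = 0.0238). In brain the 6 F1 means lay between 8.88 and 8.99 and the 3 inbred means between 9.01 and 9.07, with no inbred or reciprocal difference called. Over all genes and tissues 27.3% of mid-parent differences were called, against 14 of 66 for the genes here.

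Slc22a18 in lung was the other case in which F1 levels followed the dam. PWKxWSB lungs ranged from 8.16 to 8.70 with a median of 8.30 (n = 10), against 7.67 to 8.20 with a median of 8.01 in WSBxPWK lungs (n = 11), and 8 of the 10 PWKxWSB lungs lay above all WSBxPWK ones. The difference was 0.37 ± 0.09 (adjusted p = 0.0051), a 1.30-fold change, beside 0.60 ± 0.08 between the inbred strains (adjusted p = 5.47e-10). Neither cross was called against its dam's strain (-0.13 ± 0.09 and 0.09 ± 0.08), and both were against their sire's (0.47 ± 0.09 and -0.51 ± 0.08). With the runs as a block the reciprocal call was lost (0.37, adjusted p = 0.399).

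CASTxWSB lungs were also above WSBxCAST lungs for Slc22a18 (medians 8.05 and 7.86, difference 0.23 ± 0.08, adjusted p = 0.0201), where the inbred strains did not differ by test (0.09 ± 0.09). This call was lost with each array centred on its median (0.15, adjusted p = 0.162) and with the runs as a block (0.28, adjusted p = 0.113). The Slc22a18 differences in lung exceeded the mean of those in the other tissues by tests of their own, by 0.42 ± 0.08 for PWK and WSB (adjusted p = 0.000586) and by 0.22 ± 0.08 for CAST and WSB (adjusted p = 0.0312). Those other tissues include brain, where Slc22a18 lay below the filter. For CAST and PWK, PWK inbred lungs stood 0.51 above CAST ones while the reciprocal difference was -0.02 ± 0.09.

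**Figure D4:**
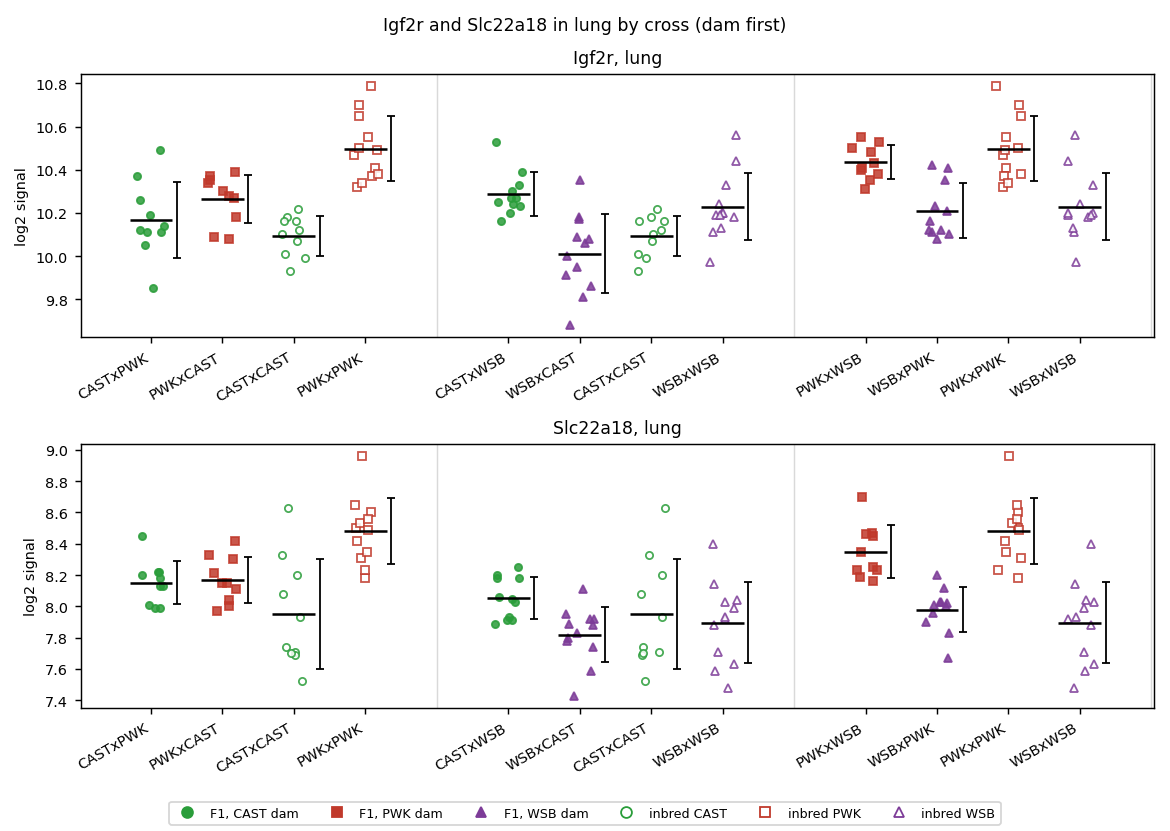
Log2 signal of Igf2r (top) and Slc22a18 (bottom) on each lung array, in blocks of a reciprocal F1 pair and its parent strains, with mean lines and SD bars; colour and shape give the dam's strain. For PWK and WSB each F1 cross lies near its dam's strain in both genes, with reciprocal differences of 0.22 and 0.37.

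In kidney, where Slc22a18 was highest, its strain gaps were wide relative to the spread and both F1 crosses of a pair lay together. PWK inbred kidneys ranged from 11.56 to 11.92 (n = 12) and overlapped neither the CAST ones, from 12.06 to 12.33 (n = 11), nor the WSB ones, from 12.22 to 12.64 (n = 12). CAST exceeded PWK by 0.44 ± 0.04 (adjusted p = 5.04e-19) and PWK was below WSB by 0.65 (-0.65 ± 0.04, adjusted p = 4.74e-30). The reciprocal differences were 0.05, 0.04 and -0.09 (SE 0.04 each), none was called, and each was smaller in size than the inbred difference by tests of both their difference (adjusted p up to 3.18e-05) and their sum (up to 0.00773).

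Phlda2, next to Slc22a18, had the widest strain gap of the 7 genes, and none of its reciprocal differences was called in the fit used throughout. In liver, CAST inbred mice ranged from 6.96 to 8.77 with a median of 8.26 (n = 11), PWK from 7.16 to 7.97 with a median of 7.61 (n = 9) and WSB from 5.76 to 6.61 with a median of 6.28 (n = 13). WSB livers overlapped neither of the other strains, and CAST exceeded WSB by 1.93 ± 0.17 (adjusted p = 2.86e-17), a 3.80-fold difference. Yet CASTxWSB and WSBxCAST livers had medians of 7.11 and 7.55 and differed by -0.12 ± 0.18 (adjusted p = 0.811), less than the inbred strains by 2.05 (-2.05 ± 0.25, adjusted p = 2.23e-11).

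Both of those crosses lay between their parents: CASTxWSB was below CAST by 1.05 and above WSB by 0.87 ± 0.17, and WSBxCAST was below CAST by 0.93 and above WSB by 0.99 ± 0.17, all called. PWKxWSB and WSBxPWK livers (medians 6.99 and 6.74) differed by 0.34 ± 0.17 (adjusted p = 0.447), against 1.31 ± 0.18 between PWK and WSB. CASTxPWK and PWKxCAST livers (medians 8.78 and 8.30) lay above the mean of their parents by 0.55 ± 0.13 (adjusted p = 0.00129), with a reciprocal difference of 0.43 ± 0.18 (adjusted p = 0.119). Phlda2 in liver was lower in females than in males, at 7.23 ± 0.81 (SD, n = 49) against 7.55 ± 0.93 (n = 52), adjusted p = 0.00406, and all 5 proliferation markers were lower in female livers too (median difference -0.57). Their part in the sex differences in liver was not tested.

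Phlda2 in lung had the same order of strains, with CAST above WSB by 1.15 ± 0.10, CAST above PWK by 0.51 ± 0.10 and PWK above WSB by 0.65 ± 0.09, all called. Its reciprocal differences there were 0.22 ± 0.10, 0.28 ± 0.10 and 0.09 ± 0.10, all toward the dam and none called (adjusted p = 0.0605, 0.283 and 0.594). The first was called when any of 6 single arrays was left out (lowest adjusted p = 0.0307, without CASTxWSB lung replicate 9) and with quantile normalisation within tissues (0.28, adjusted p = 0.0119). In kidney, where Phlda2 was highest, PWK was below WSB by 0.49 (-0.49 ± 0.13, adjusted p = 0.000693), and no reciprocal difference was called.

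**Figure D5:**
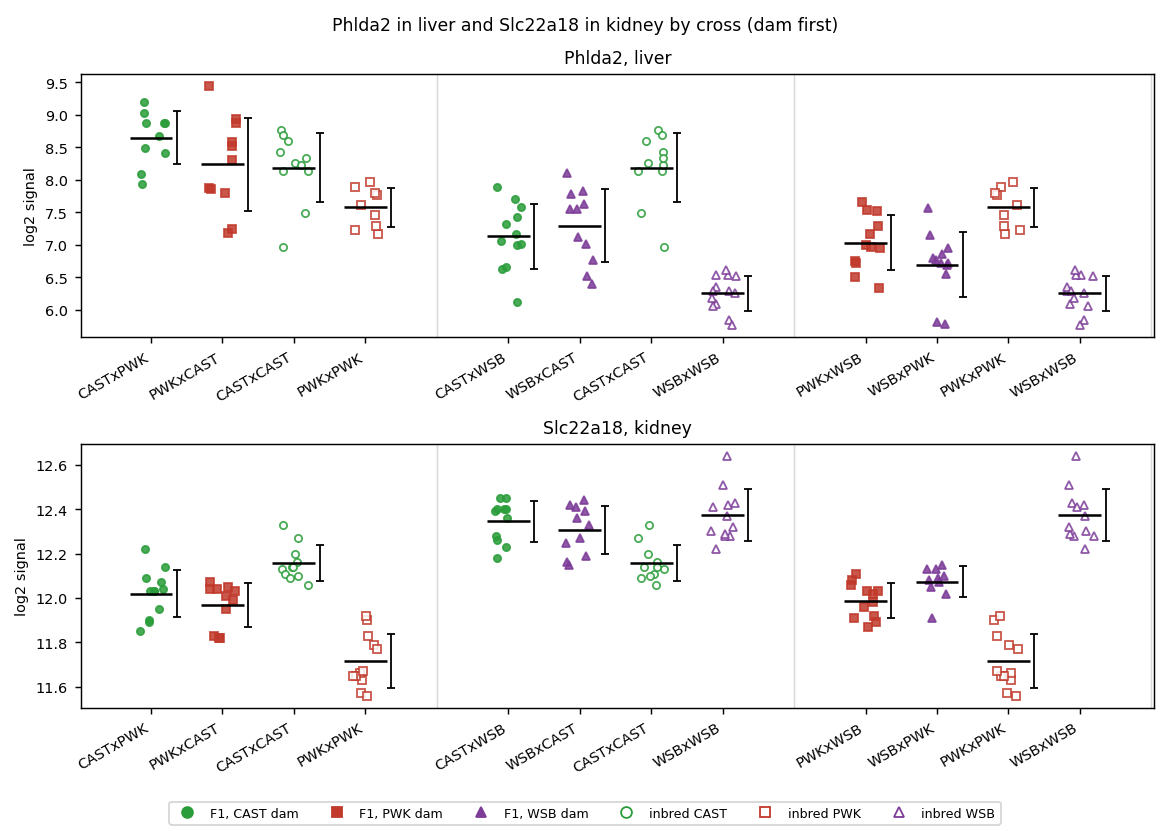
Log2 signal of Phlda2 on each liver array (top) and Slc22a18 on each kidney array (bottom), in blocks of a reciprocal F1 pair and its parent strains, with mean lines and SD bars; colour and shape give the dam's strain. No reciprocal difference was called in any block. Phlda2 in CASTxWSB and WSBxCAST livers (medians 7.11 and 7.55) lay between CAST (8.26) and WSB (6.28). CASTxPWK and PWKxCAST livers had Phlda2 medians of 8.78 and 8.30, a reciprocal difference of 0.43 ± 0.18 beside an inbred one of 0.62 ± 0.19.

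Cdkn1c, the third gene of that domain, was lowest in CAST in brain, kidney and liver. In kidney CAST inbred mice ranged from 8.78 to 9.40 with a median of 8.98 (n = 11), against 8.89 to 9.88 with a median of 9.46 in PWK (n = 12) and 9.17 to 9.63 with a median of 9.56 in WSB (n = 12). CAST was below PWK by 0.41 and below WSB by 0.47 in kidney, by 0.43 and 0.53 in brain and by 0.34 and 0.46 in liver, all 6 called. With the runs as a block the liver difference of CAST and PWK was not called (-0.34, adjusted p = 0.0568). No reciprocal difference was called in these tissues. In kidney CASTxPWK minus PWKxCAST was 0.03 ± 0.08 and CASTxWSB minus WSBxCAST 0.19 ± 0.08, both different from the inbred gap by test (adjusted p = 0.000769 and 8.69e-07).

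In lung the inbred strains did not differ by test in Cdkn1c, and CASTxWSB was below WSBxCAST with ranges of 9.11 to 9.58 (median 9.36, n = 11) against 9.33 to 9.76 (median 9.51, n = 12). That difference of -0.20 ± 0.07 (adjusted p = 0.0248) was no longer called without CASTxWSB lung replicate 5 (-0.17, adjusted p = 0.0577) or with the runs as a block (-0.19, adjusted p = 0.2). Cdkn1c was higher in female than in male livers, at 7.75 ± 0.27 (SD, n = 49) against 7.51 ± 0.30 (n = 52), adjusted p = 0.000364.

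Ube3a differed between strains in all 4 tissues, and none of its reciprocal differences was called in the fit used throughout. In brain, CAST inbred mice ranged from 9.30 to 9.80 with a median of 9.75 (n = 8), against 8.98 to 9.44 with a median of 9.38 in PWK (n = 6) and 9.01 to 9.59 with a median of 9.25 in WSB (n = 11). CAST exceeded PWK by 0.31 ± 0.08 (adjusted p = 0.00205, or 0.20 and 0.0854 without PWKxPWK brain replicate 1) and WSB by 0.35 ± 0.07 (adjusted p = 1.8e-05). The 6 F1 means lay within 9.35 to 9.49, and CASTxPWK minus PWKxCAST was -0.03 ± 0.07 and CASTxWSB minus WSBxCAST -0.11 ± 0.07. Both departed by test from the inbred gap (adjusted p = 0.00979 and 0.000114), and neither was called itself (adjusted p = 0.991 and 0.508). Only 0.151% and 0.779% of all genes were called in these brain comparisons.

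CAST also exceeded PWK for Ube3a in kidney by 0.41 ± 0.12 and in liver by 0.26 ± 0.09, and exceeded WSB in liver by 0.30 ± 0.08, all called. In lung WSB was highest, above CAST and PWK by 0.18 each (CAST minus WSB and PWK minus WSB both -0.18 ± 0.07). The lung calls were lost with the runs as a block (adjusted p = 0.0739 and 0.106), as was that of CAST and PWK in liver (0.24, adjusted p = 0.0886). The call for CAST and WSB in lung was also lost without any of several single arrays (adjusted p up to 0.118, without CASTxCAST lung replicate 5). The 9 reciprocal differences of Ube3a in these tissues lay between -0.20 and 0.13. The lowest was in liver, where CASTxPWK ranged from 9.06 to 9.66 with a median of 9.27 (n = 10), against 9.41 to 9.70 with a median of 9.50 in PWKxCAST (n = 11), and 7 of the 10 CASTxPWK livers lay below all PWKxCAST ones. That difference, against the inbred direction, was -0.20 ± 0.09 (adjusted p = 0.137), and with array weights it was called (-0.22, adjusted p = 0.0282).

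Asb4 was below the filter everywhere, so its values come from a fit of all 18820 genes. In lung, where it was highest, CAST inbred mice ranged from 6.15 to 6.66 with a median of 6.36 (n = 10), against 5.11 to 5.78 with a median of 5.54 in PWK (n = 12), with no overlap. CAST exceeded PWK by 0.90 ± 0.08 (adjusted p = 4.55e-17) and WSB by 0.45 ± 0.08 (adjusted p = 2.11e-06). CASTxPWK lungs had a median of 6.12 and PWKxCAST lungs 5.90, a difference of 0.31 ± 0.08 toward the dam that missed the threshold (adjusted p = 0.0684). The other lung crosses differed by 0.05 ± 0.08 (CASTxWSB minus WSBxCAST) and -0.20 ± 0.08 (PWKxWSB minus WSBxPWK), neither called. Slc22a18 in brain, also below the filter, was lower in CAST than in PWK and WSB in the same fit (-0.43 ± 0.13 and -0.61 ± 0.11), and Phlda2 in brain gave no call.

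Counted over all 6 tested genes, F1 levels were called against the dam's strain in 49 of 132 tests (37.1%, with 38% over all genes) and against the sire's strain in 65 of 132 (49.2%, with 37.3% over all genes). Comparisons that share a strain share its arrays. For Grb10 the counts were 6 of 24 against the dam, all 6 lower in the F1, and 14 of 24 against the sire. For Slc22a18 they were 6 of 18 and 11 of 18, and for Ube3a 8 of 24 and 6 of 24. Sex differences were called in 6 of 22 tests (7.07% over all genes): besides those in liver named above, Grb10 was lower in female lungs (-0.10 ± 0.03) and Phlda2 higher (0.16 ± 0.05), and Slc22a18 was higher in female kidneys (0.07 ± 0.02). No reciprocal difference of the 6 genes differed between the sexes by test (0 of 66 in limma after adjustment, 4 at an unadjusted p under 0.05, with 0.108% called over all genes).

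The gene lists here and in the next paragraphs were chosen with earlier results of these data known, so their shares are descriptions, not tests. Of 35 further genes listed as imprinted and maternally expressed, 31 were on the table and 20 to 24 were tested per tissue. Whether each of them is imprinted in these tissues at this age was not examined. Of their 267 reciprocal differences, 18 were called, 12 higher and 6 lower. That is 6.74%, close to the 5.97% over all genes. The calls include those of Meg3, Ampd3, Atp10a, Pon3, Ppp1r9a, Gnas and Tfpi2 in CAST/WSB lung, where 38.8% of all genes were called. The cluster annotated Mir675, a microRNA made from the H19 transcript, differed in liver by 3.24 ± 0.25 (10.99 ± 1.32 in PWKxWSB against 7.75 ± 0.70 in WSBxPWK, SD, n = 12 each), where the inbred difference had the opposite sign (-0.90). It also differed in CAST/WSB liver by 1.72 ± 0.26 (inbred -2.11) and in CAST/PWK liver by -1.95 ± 0.27, this last one in the direction of the inbred difference (-1.21). Meg3, a maternally expressed long noncoding RNA, was higher in CASTxWSB than in WSBxCAST lungs by 0.89 ± 0.13 and in CASTxPWK than in PWKxCAST lungs by 0.66 ± 0.15, with inbred differences of 0.62 and 0.54 in the same direction. In CASTxPWK livers Meg3 was lower than in PWKxCAST livers (-0.74 ± 0.21, adjusted p = 0.0179), against an inbred difference of 1.24. Gnas, which encodes a stimulatory G protein subunit, was higher in CASTxWSB than in WSBxCAST kidneys by 0.13 ± 0.03, beside 0.15 between the inbred strains. Ampd3, an AMP deaminase gene, was higher in CASTxWSB than in WSBxCAST lungs by 0.70 ± 0.11, with an inbred difference of -1.25.

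Of 11 paternally expressed genes that neighbour these imprinted domains, 8 were on the table and 6 were tested per tissue, and 14 of 72 reciprocal differences were called (19.4%, with 5.97% over all genes). Ndn, a growth suppressor of the domain that holds Ube3a, followed the sire: PWKxWSB kidneys were below WSBxPWK kidneys by 0.54 (-0.54 ± 0.09), where PWK exceeded WSB by 0.58. CASTxWSB kidneys were below WSBxCAST kidneys by 0.50 for Ndn (-0.50 ± 0.09), where CAST exceeded WSB by 0.50. Lungs had Ndn differences of -0.47 ± 0.06 for PWK and WSB (inbred 0.60) and -0.44 ± 0.05 for CAST and WSB (inbred 0.61). Peg10 and Sgce, which neighbour Asb4, ran against their strain differences for PWK and WSB, with Peg10 at 0.48 ± 0.09 in lung (inbred -0.49) and Sgce at -0.41 ± 0.06 in liver (inbred 0.36). Sgce also ran against a called inbred difference in PWK/WSB kidney (-0.33 ± 0.08, inbred 0.32) and CAST/WSB liver (-0.20 ± 0.06, inbred 0.61). Calls with the sign of an inbred difference that was not called included Peg10 at 0.48 ± 0.12 in CAST/PWK liver (inbred 0.17) and Sgce at -0.27 ± 0.06 in CAST/WSB lung (inbred -0.14). Igf2, the ligand of Igf2r, was lower in PWKxWSB than in WSBxPWK livers by 1.39 (-1.39 ± 0.16, inbred 0.90) and higher in CASTxPWK than in PWKxCAST livers (0.52 ± 0.17, inbred -1.68). In brain the PWK/WSB difference of Igf2 was -0.52 ± 0.08, with the sign of the inbred one (-0.51).

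In a list of 18 genes of the insulin-like growth factor axis, with 17 on the table, 22 of 192 reciprocal differences were called (11.5%, with 5.97% over all genes), 13 higher and 9 lower. Igf2 is in both this list and that of the paternally expressed genes, and its calls count in both. Of the 22, 6 were in CAST/WSB lung, where 38.8% of all genes were called. Igfbp2, which binds these growth factors, was higher in CASTxWSB than in WSBxCAST livers by 0.84 ± 0.10 and lower in PWKxWSB than in WSBxPWK lungs by 1.10. Igf1r and Insr, the receptors through which Grb10 acts, were higher in CASTxWSB than in WSBxCAST lungs by 0.49 ± 0.09 and 0.33 ± 0.06. Of 57 tests of 6 other cyclin-dependent kinase inhibitors 9 were called (15.8%, with 5.97% over all genes), 4 of them in CAST/WSB lung. They included Cdkn1a in brain of PWK and WSB (0.47 ± 0.10), Cdkn2b in lung of CAST and WSB (-0.33 ± 0.07), Cdkn2c in kidney of PWK and WSB (-0.36 ± 0.09) and Cdkn2d in lung of PWK and WSB (-0.22 ± 0.07). Among 13 relatives of the 7 genes in their protein families 2 of 144 were called (1.39%), Slc22a23 (0.24 ± 0.05) and Asb13 (-0.10 ± 0.04), both between CASTxWSB and WSBxCAST lungs.

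The reciprocal comparison sets the parent of origin of each copy together with the dam herself: her uterine and nursing environment and her mitochondria differ in the same way in both sexes, and their parts cannot be told apart from that of the imprint in these crosses. The strain of the X and Y chromosomes differs with the dam in males only, and F1 females of a reciprocal pair carry the same X chromosomes.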

How the data were processed

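The authors deposited log2 signals per transcript cluster, for which RMA and Affymetrix Expression Console are listed in the submitters' processing notes with no versions. No source used here says whether tissues were normalised together. The 35556 clusters ranged from 1.6 to 14.55 on the log2 scale, and array medians lay between 5.89 and 6.36. The platform annotation gave 21218 clusters 1 gene symbol, 1881 several and 12457 none listed; only the first were used, keeping per symbol the cluster with the highest mean, and every one of the 7 genes had a single cluster. Groups were read from the labels. Per tissue, limma 3.58.1 in R 4.3.3 (lmFit, eBayes with a trend) was fitted on 18 cross-by-sex means, with the sexes weighted equally and Benjamini-Hochberg adjustment over 11292 genes, and was tested on simulated data. Means per group are of arrays or, beside a test, of both sexes weighted equally. Tissue comparisons used 36 means, and tissue differences of reciprocal contrasts 72, with the animal as a random block. Named genes are the 7 genes, the 2 most like each, and of each list up to 4 genes called between reciprocal crosses with the smallest p. The genes and lists were chosen with earlier results of these data known. The number of arrays limits the precision.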

Additional observations from a re-analysis of the deposited data

Results flagged for a closer look

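In 91 groups of 4 to 10 arrays, 7 had an array set apart from the rest of its group by Dixon's criterion, where chance gives about 1 in 20. The low ones were Phlda2 in CASTxPWK lung replicate 4 (6.79, others from 7.41) and PWKxCAST lung replicate 10 (6.91, others from 7.19), and Ube3a in PWKxPWK brain replicate 1 (8.98, others from 9.30). The high ones were Slc22a18 in CASTxCAST brain replicate 3 (5.96, others to 5.55) and CASTxPWK lung replicate 10 (8.45, others to 8.22), Ube3a in PWKxCAST lung replicate 8 (9.37, others to 9.07) and Asb4 in PWKxWSB brain replicate 1 (6.34, others to 5.86).

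A reciprocal difference departed from its mean in the other tissues by a test of that departure in 4 cases. They were Grb10 between CASTxWSB and WSBxCAST in brain (-0.26), Grb10 between PWKxWSB and WSBxPWK in liver (0.27), and Slc22a18 in lung between CASTxWSB and WSBxCAST (0.22) and between PWKxWSB and WSBxPWK (0.42).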

How the results depend on the processing

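The 41 inbred differences called of 66 became 30 to 44 in the other settings with the same 66 tests, and 37 to 42 with single arrays left out. They were 29 of 51 tests with a filter at the 60th percentile and 51 with no filter, which adds tests of genes below it. The 9 reciprocal differences called became 8 to 10 with single arrays left out, 15 with array weights, 2 with the runs of animal numbers treated as random blocks and 1 in females only. With the runs as a block, 22 of 36 reciprocal plus inbred contrasts (the departure from the sire's levels), 7 of 14 mid-parent contrasts and 66 of 114 contrasts with a dam's or sire's strain were called. With a filter at the 60th percentile, which left 51 of the 66 tests, 22 reciprocal plus inbred and 3 of 6 sex contrasts were called. Array weights gave 1 sex difference of a reciprocal contrast in place of 0, and 8 tissue differences in place of 4. No direction of a call was reversed in any setting run. Replicate numbers only name arrays in these labels. Tissues of the same animal were linked by the animal number, which was the random block of the tissue comparisons. The causes of these changes were not tested. Signals below the filter, as for Asb4, have no measured background in the deposited table.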
